A study of Canis lupus familiaris with 18 samples.

Results

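Expression of RUNX2, BGLAP, COL1A1 and TBX5, 4 genes associated with the osteoblast lineage, was examined in mesenchymal stem cells cultured from the fat of dogs (cAD-MSCs). The genes were taken by name from the 84 genes of an RT-qPCR array for dog mesenchymal stem cells, all 4 of them present on it. The cells were isolated from abdominal fat of 9 healthy female dogs and grown in basal medium with fetal bovine serum, without an osteogenic supplement in the stated medium. RNA was taken from each culture at passage 6 (P6) and, as the control group, at passage 3 (P3), so 18 samples were measured, 9 per passage, and every dog contributed to both passages. No genotype, transgene or drug treatment distinguished the groups, which differed in passage alone as far as the labels state. Donors are called by the names of their samples, 6-21 to 7-22.

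RUNX2 encodes the Runt-family transcription factor that osteoblast development requires, and it is already active in progenitors before any mineral is laid down. COL1A1 encodes the α1 chain of type I collagen, the main protein of bone matrix, which fibroblasts and other stromal cells also make in quantity. BGLAP encodes osteocalcin, a small matrix protein of mature osteoblasts whose gene is a classical target of RUNX2. TBX5 encodes a T-box transcription factor best known from heart and forelimb development.

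Each gene had 1 well per sample. The well was read as a threshold cycle (CT), the PCR cycle at which fluorescence crosses a set level, so an earlier CT stands for more transcript. Wells above 35 cycles or marked undetermined were set to 35 cycles, the geometric mean CT of 5 reference genes was subtracted and the sign was turned. The result, −ΔCT, is a level in log2 units, each of them a doubling of transcript provided that the assay doubles its product every cycle. Amplification efficiencies of the assays are not given in the sources used here, so levels of different genes are compared only roughly. RNA came from whole cultures, in which fewer cells of a type and less RNA per cell cannot be told apart.

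Between 72 and 77 of the 84 genes were read before 35 cycles in a P6 sample, and between 75 and 81 in a P3 sample. Mean reference CT lay between 14.13 and 15.12 in P6 samples and between 14.11 and 15.71 in P3 samples. A well was called distant when its −ΔCT lay more than 4 units from the median of its gene over the 18 samples, which held for 111 of 1512 wells (7.34%) and for 8 of the 72 wells of the 4 genes. Distant wells numbered 2 to 19 in a P6 sample and 2 to 10 in a P3 sample, with the most in P6 of donors 9-21 (19) and 7-22 (15). The 6 mesenchymal markers THY1, NT5E, ENG, CD44, ITGB1 and VIM were read in 54 of 54 wells at P6 and in 53 of 54 wells at P3. The leukocyte markers PTPRC and ITGAX were read in 7 of 18 wells at P6 and in 17 of 18 wells at P3, and their summed level ranged from −19.87 to −15.52 at P6 and from −15.19 to −6.59 at P3 on the −ΔCT scale. The part of these leukocyte markers in the levels of the 4 genes was not tested.

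No passage difference of RUNX2, BGLAP, COL1A1 or TBX5 passed the test, and none of the 4 moved one way in all 9 donors. RUNX2 was read in all samples at a moderate level, within 2.36 units. BGLAP was lower and held within 1.40 units in every sample but 1, and COL1A1 lay above the mean of the reference genes in every sample but 1. TBX5 was low and, with the limit at 35 cycles, differed between donors by up to 12.2 units at P6 and 10.7 units at P3. By limma with Benjamini-Hochberg adjustment over the array, 1 of 84 genes (1.19%) was called, the leukocyte gene PTPRC, which was lower at P6 (log2 difference −4.38, adjusted p = 0.0300, lower in 9 of 9 donors). With the donor as a block, 2 genes were called, neither of them among the 4.

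**Figure D1:**
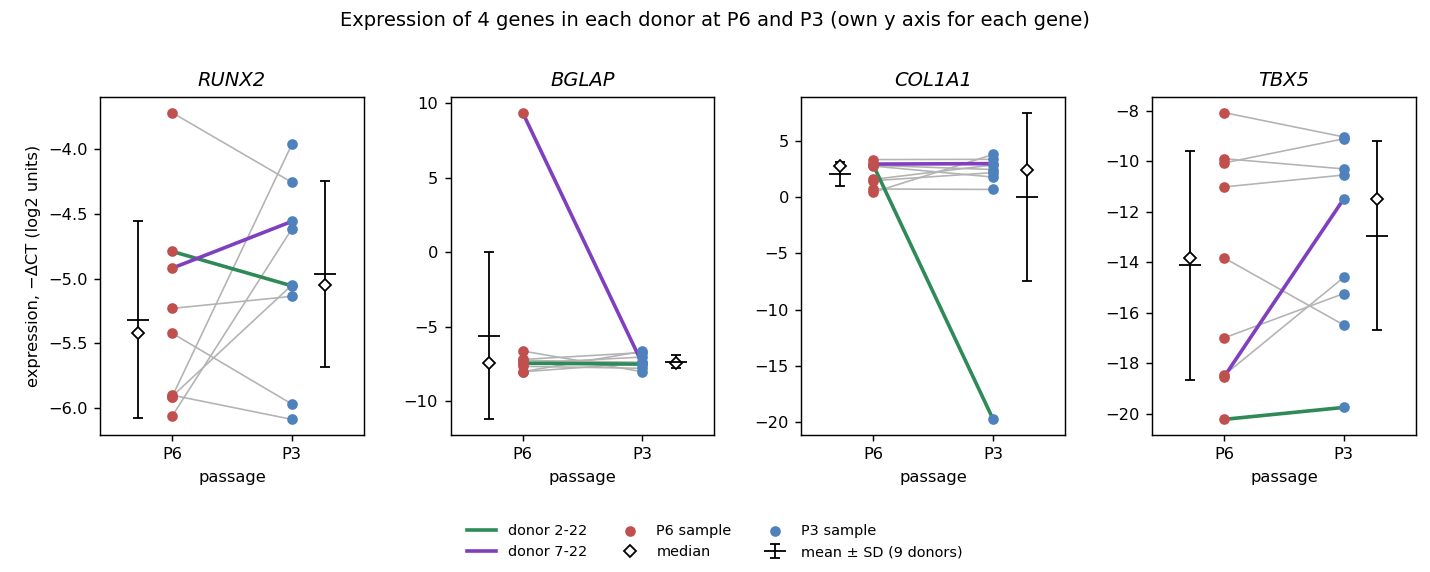
Level of each gene (−ΔCT, log2 units, own y axis per panel) in the 9 donors at P6 (left, red) and P3 (right, blue), with a line joining the samples of a donor (green 2-22, purple 7-22). Black bars give the mean ± SD and diamonds the median of a passage. BGLAP of donor 7-22 at P6 (9.38) and COL1A1 of donor 2-22 at P3 (−19.76, an undetermined well set to 35 cycles) stand apart from the other samples, while TBX5 is spread over the whole range at both passages.

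RUNX2, the transcription factor at the head of the lineage, ranged from −6.06 through a median of −5.42 to −3.72 at P6, against −6.09 through −5.05 to −3.97 at P3. The passages overlapped over nearly their whole range, with donor 1-22 highest at P6 and donor 6-22 highest at P3. Its CT lay between 18.84 and 20.94 at P6 and between 18.67 and 20.85 at P3, so no well was near the limit. The mean level was −5.32 ± 0.758 at P6 and −4.97 ± 0.715 at P3 (SD, n = 9 each). The difference of −0.35 (SE 0.387, 95% interval −1.16 to 0.46) had an adjusted p of 0.873 by limma. RUNX2 was higher at P6 in 4 donors and lower in 5, with changes between −1.95 in donor 6-22 and 0.55 in donor 13-21. Its SD over the 18 samples, 0.737, was the 14th lowest of the 84 genes, and none of its wells was distant. By interquartile range, 1.24 units, it was the 33rd lowest.

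COL1A1, the collagen chain, was read at 11.18 to 14.31 cycles at P6 and at 10.96 to 14.07 cycles in 8 of 9 samples at P3. Its level ranged from 0.44 through a median of 2.77 to 3.35 at P6, against −19.76 through 2.46 to 3.80 at P3. All samples but 1 therefore lay above the reference mean, and the exception was P3 of donor 2-22, whose well was undetermined. By its median over the 18 samples COL1A1 ranked 2nd of the 84 genes, after the intermediate filament gene VIM.

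The P3 sample of donor 2-22 that gave no COL1A1 reading had RUNX2 at −5.06 and BGLAP at −7.53, both inside the range of the other donors, while its TBX5 well was undetermined too. At P6 the same donor had COL1A1 at 2.85, above the median of that passage. The 1 undetermined well set the mean of P3, which was 0.05 ± 7.48 (n = 9), against 2.11 ± 1.07 at P6 (SD, n = 9), and gave COL1A1 the largest SD of the 84 genes. The difference was 2.06 (SE 2.40, 95% interval −2.98 to 7.10, limma adjusted p = 0.873). Without that well the P3 mean was 2.52 ± 0.978 (SD, n = 8) and the difference turned to −0.41 (SE 0.502, 95% interval −1.47 to 0.64, limma adjusted p = 0.985). With all wells COL1A1 was higher at P6 in 4 donors and lower in 5, and in donor 6-22 it was 0.44 at P6 and 3.80 at P3. The 4 include donor 2-22, whose P3 level was set by the limit.

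BGLAP, the osteocalcin gene, ranged from −8.04 through a median of −7.46 to 9.38 at P6, against −8.04 through −7.45 to −6.67 at P3. The passages coincided except for P6 of donor 7-22. That well was read at 4.75 cycles, the earliest of the 1405 wells with a reading among the 84 genes, and the next earliest of any gene were 7.56 and 10.49 cycles. The other 17 BGLAP wells lay between 20.93 and 22.78 cycles. In the same sample the array's positive PCR controls were read at 14.91 to 14.94 cycles, and the earliest reference gene at 12.70 cycles.

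With all wells BGLAP averaged −5.60 ± 5.63 at P6 and −7.36 ± 0.457 at P3 (SD, n = 9 each), a difference of 1.75 (SE 1.80, 95% interval −2.03 to 5.53, limma adjusted p = 0.873). Without the early well the P6 mean was −7.48 ± 0.458 (SD, n = 8) and the difference −0.12 (SE 0.280, 95% interval −0.71 to 0.47, limma adjusted p = 0.985). The interquartile range of BGLAP, which a single well hardly moves, was 0.547 units over the 18 samples, the 7th lowest of the 84 genes, whose median was 1.45 units. BGLAP was higher at P6 in 5 donors and lower in 4, with the changes in the 8 donors other than 7-22 between −1.36 and 1.40.

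TBX5, the T-box factor, ranged from −20.23 through a median of −13.82 to −8.06 at P6, against −19.76 through −11.48 to −9.03 at P3. The passages overlapped over almost the whole range, and donor 2-22 was undetermined in both, so its values were set by the limit of 35 cycles. TBX5 was read in 8 of 9 samples at each passage, from 22.35 cycles at P6 and from 23.47 cycles at P3. Some single wells were read close to the limit. These were 31.70, 32.99 and 32.68 cycles in P6 of donors 9-21, 6-22 and 7-22, and 32.20 cycles in P3 of donor 1-22. It had the largest interquartile range of the 84 genes (6.76 units) and 6 distant wells, 5 of them at P6.

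**Figure D2:**
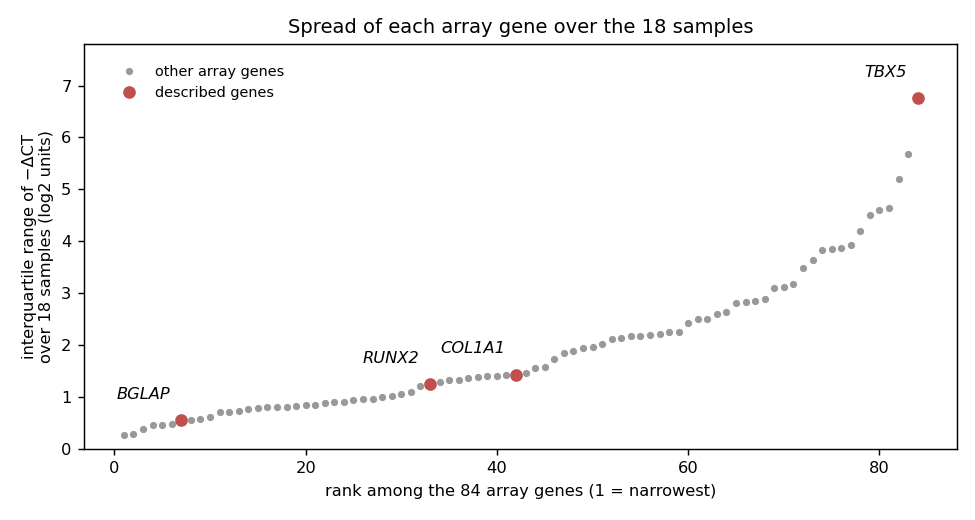
Interquartile range of −ΔCT over the 18 samples (y axis, log2 units) for each of the 84 array genes, ordered from narrowest to widest (x axis). The 4 genes are in red: BGLAP (0.547) lies near the narrow end, RUNX2 (1.24) and COL1A1 (1.43) near the middle, and TBX5 (6.76) at the wide end.

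In both passages the same 4 donors had the highest TBX5 levels. Donor 13-21 ranked first with −8.06 at P6 and −9.03 at P3. Donor 6-21 had −9.89 at P6 and −10.30 at P3, donor 14-21 had −10.06 at P6 and −9.10 at P3, and donor 3-22 had −11.01 at P6 and −10.54 at P3. The level of these 4 changed by less than 1 unit between the passages.

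The other 5 donors lay below them at both passages. Donor 1-22 had −13.82 at P6 and −16.49 at P3, and donor 9-21 had −17.00 at P6 and −15.24 at P3. The largest falls were in donor 6-22, with −18.48 at P6 and −14.60 at P3, and in donor 7-22, with −18.55 at P6 and −11.48 at P3, which are P6 samples with 12 and 15 distant wells over all genes. The part of those samples in the TBX5 values was not tested.

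The mean TBX5 level was −14.12 ± 4.54 at P6 and −12.95 ± 3.74 at P3 (SD, n = 9 each). The difference was −1.18 (SE 1.87, 95% interval −5.11 to 2.76, limma adjusted p = 0.903), with 3 donors higher and 6 lower at P6. Among the 6 was donor 2-22, undetermined at both passages, whose change of −0.47 came from its reference CT alone. The donor as a block brought the SE to 0.894 and the 95% interval to −3.18 to 0.83, without a call (limma adjusted p = 0.741). The difference was −0.44 without donor 7-22 (limma adjusted p = 0.991). It turned to 0.90 without the 6 TBX5 wells more than 4 units from the median (limma adjusted p = 0.981). That setting kept 4 samples at P6 and 8 at P3. The P6 wells it left out included the lowest of that passage, those of donors 9-21, 2-22, 6-22 and 7-22.

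By the size of the mean difference alone, 31 of 84 genes (36.9%) differed by at least 2-fold between the passages, and among them were 3 of the 4 genes, BGLAP, COL1A1 and TBX5. When wells more than 8 units from the median of their gene were left out, 15 of 84 genes (17.9%) did so, and 1 of the 4 genes, TBX5, was among them. The wells so removed from the 4 genes were the early BGLAP well and the undetermined COL1A1 well. Donors with names ending in 21 and in 22 gave RUNX2 differences of −0.39 and −0.32, and TBX5 differences of −0.34 and −1.85. For BGLAP the corresponding differences were 0.13 and 3.05, and for COL1A1 −0.40 and 4.03, and both wells removed belong to donors whose names end in 22. The passage difference did not pass a test between the 2 sets of donors for any of the 4 genes (limma interaction, adjusted p from 0.935 to 0.989). That test used all wells and did not pair the samples of a donor, so the spread between donors entered its error.

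**Figure D3:**
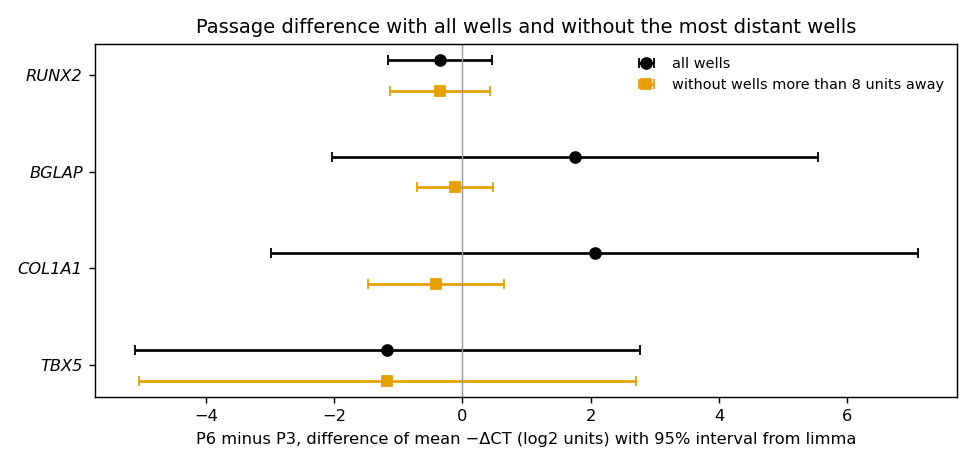
Difference of mean −ΔCT, P6 minus P3 (x axis, log2 units, positive is higher at P6), with the 95% interval from limma for each gene. Black circles use all wells and orange squares leave out wells more than 8 units from the median of their gene. BGLAP (1.75 and −0.12) and COL1A1 (2.06 and −0.41) change sign and narrow, and every interval includes 0. RUNX2 (−0.35) and TBX5 (−1.18) have no well that far away, so leaving such wells out could not move their differences.

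Since both passages came from the same dogs, the level of a donor at P6 was set against its level at P3. TBX5 had Pearson's r = 0.78 (exact permutation p = 0.0185, n = 9 donors) and Spearman's rho = 0.82 (exact permutation p = 0.0108), but after adjustment over the 84 genes the permutation p-values were 0.136 and 0.153. Over the array, 3 of 84 genes (3.57%) passed at an adjusted p of 0.05 by Pearson's r and 0 of 84 (0%) by Spearman's rho, for which 19 genes had an unadjusted exact permutation p under 0.05. The median over the 84 genes was r = 0.30 and rho = 0.37.

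Without the 2 donors farthest from the P3 median, 1-22 and 2-22, r for TBX5 was 0.83 (exact permutation p = 0.0171, n = 7, adjusted 0.511). Leaving out each donor in turn gave r from 0.69 (without 2-22, whose values sat at the limit) to 0.90 (without 7-22). RUNX2 had r = 0.27 and rho = −0.02 (exact permutation p = 0.484 and 0.982, adjusted 0.753 and 1), and r = 0.42 without its 2 farthest donors. BGLAP had r = −0.17 and rho = −0.28 (exact permutation p = 0.594 and 0.463, adjusted 0.799 and 0.720), with r = −0.003 without its 2 farthest donors. Those were 1-22 and 3-22, picked by their P3 levels, so the early P6 well of donor 7-22 stayed in. Without donor 7-22, r for BGLAP was −0.42 (exact permutation, adjusted p = 0.576, n = 8). COL1A1 had r = −0.24 and rho = 0.07 (exact permutation p = 0.682 and 0.880, adjusted 0.820 and 0.960), with r = −0.31 without its 2 farthest donors. After adjustment over the 84 genes, a level that carried over from P3 to P6 was not detected for any of the 4 genes with 9 donors. No coefficient was computed within the donors with names ending in 21 and in 22, 4 and 5 in number, because a minimum of 6 donors was set for one.

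**Figure D4:**
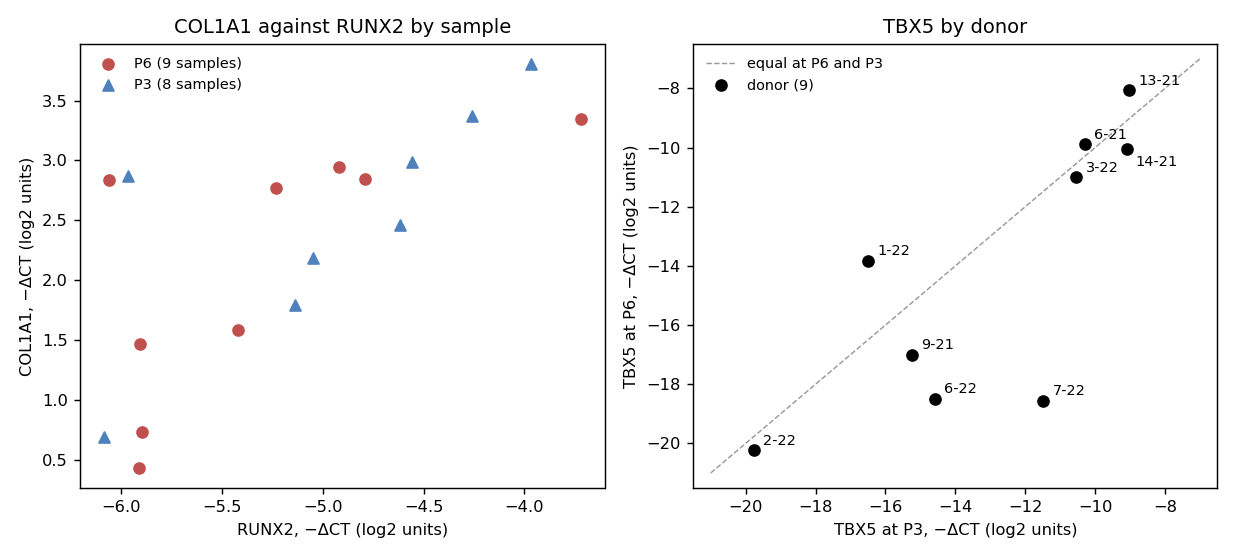
Left, COL1A1 against RUNX2 level (both −ΔCT, log2 units) in 9 P6 samples (red circles) and 8 P3 samples (blue triangles), leaving out the P3 sample of donor 2-22 with no COL1A1 reading. Right, TBX5 level of each donor at P6 (y axis) against P3 (x axis), both −ΔCT, with a dashed line of equality. COL1A1 tends to be higher where RUNX2 is higher at both passages, with exceptions such as P6 of donor 9-21 (RUNX2 −6.06, COL1A1 2.84). TBX5 of donor 7-22 lies farthest below the line (−18.55 at P6 and −11.48 at P3).

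Among the 6 pairs of the 4 genes, COL1A1 and RUNX2 were the most alike across samples. Their Spearman's rho was 0.66 over the 18 samples, 0.72 within P6 and 0.77 within P3. Pearson's r was 0.11 with all wells and 0.73 without the undetermined COL1A1 well (17 samples). These coefficients are descriptive, because samples of 1 donor are not independent and all levels of a sample share its reference CT. The CT difference between RUNX2 and COL1A1, which the reference genes do not enter, was 7.43 ± 0.778 cycles at P6 (SD, n = 9) and 7.48 ± 0.651 cycles at P3 (SD, n = 8). The levels of the 2 genes relative to each other thus differed by 0.05 cycles between the passages, less than the spread between donors. BGLAP had rho between −0.04 and 0.29 with the other 3 genes, and TBX5 had rho = −0.34 with RUNX2.

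For each gene, the 3 genes most alike were sought by Spearman's rho over the 18 samples among the 74 other genes read in at least 14 samples. RUNX2 was closest to GDF15 (0.71), a stress-induced member of the TGF-β superfamily, FUT1 (0.71), a fucosyltransferase, and ALCAM (0.69), a cell adhesion molecule. COL1A1 was closest to FUT1 (0.69), RUNX2 (0.66) and the receptor tyrosine kinase gene ERBB2 (0.60). BGLAP was closest to ALCAM (0.62) and to the histone acetyltransferase gene HAT1 (0.55). Its rho with ALCAM was 0.77 within P6 and 0.50 within P3, and with HAT1 0.85 within P6 but 0.23 within P3. TBX5 was closest to SLC17A5 (0.81), which encodes the lysosomal sialic acid transporter, NT5E (0.78), the CD73 ecto-enzyme used as a mesenchymal stem cell marker, and HGF (0.74), hepatocyte growth factor. The median rho over the compared genes was between 0.03 and 0.06 for each of the 4. The named genes were picked as the highest of 74 coefficients, so their rho is descriptive.

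Bone formation is driven from outside the cell by BMP, TGF-β and Wnt ligands, whose receptors act through SMAD proteins and β-catenin. A list of 12 array genes was taken for this signalling and for regulators tied to bone formation more loosely (ligands BMP2, BMP4, BMP7, TGFB1 and WNT3A, receptor FZD9, the SMAD regulators SMURF1 and SMURF2, the transducers SMAD4 and CTNNB1, the focal adhesion kinase gene PTK2 and the histone deacetylase gene HDAC1). It does not hold every ligand of the BMP and TGF-β families on the array, and leaves out TGFB3, GDF5 and GDF7. Of the 12 genes, 0 were called higher and 0 lower at P6 by limma, against 1 of 84 over the array. At an unadjusted limma p under 0.05 there were 0 of the 12, against 5 of 84 over the array. With so few over the array, a count of 0 does not set the list apart. The mean was higher at P6 for 6 and lower for 6, with a median difference of 0.01, against −0.05 over all 84 genes. Among the lower genes, WNT3A (−0.87) was read in 0 of 9 samples at P6 and 1 of 9 at P3, so its difference rests on a single well. The lowest differences were those of BMP2 (−1.42, SE 1.66, limma adjusted p = 0.873) and BMP4 (−1.18, SE 1.71, limma adjusted p = 0.873), which were each read in 8 of 9 samples at P6 and 9 of 9 at P3. The unread wells of both were in P6 of donor 7-22, and without wells more than 8 units away the differences were 0.16 for BMP2 and 0.52 for BMP4. The highest were those of BMP7 (0.90, SE 1.07) and CTNNB1, the β-catenin gene (0.42, SE 0.459), both with a limma adjusted p of 0.873.

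The regulators of the other mesenchymal fates were not called. SOX9, the cartilage transcription factor, differed by 0.03 (SE 0.514, limma adjusted p = 0.996). PPARG, the adipocyte nuclear receptor, differed by 2.63 (SE 2.04, limma adjusted p = 0.873), and by 0.66 without wells more than 8 units away. Its direction turned to −0.04 without wells more than 4 units away and to −0.71 by medians. The adipocyte markers ADIPOQ and LPL went the other way, with differences of −3.29 and −3.41 (limma adjusted p = 0.345 and 0.222). Each of them was lower at P6 in 8 donors and higher in 1. Both were read in 7 of 9 samples at P6 and 9 of 9 at P3. At P6 as at P3, SOX9 was read in 9 of 9 samples, as were RUNX2 and BGLAP.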

How the data were processed

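RNA of 9 canine donors was measured at P6 and P3 by RT-qPCR (SYBR Green, Rotor-Gene Q). The deposited values are per-well CT scores in cycles, before any limit or normalization, and the authors used 1 well per gene and sample. Tables of passage means and of the authors' fold changes were not used. CT values above 35 or undetermined were set to 35, and the geometric mean CT of ACTB, B2M, HPRT1, PGK1 and RPL13A was subtracted. P6 was compared with P3 over 84 genes with limma 3.58.1 in R 4.3.3, two-sided and unpaired as in the study's methods, with Benjamini-Hochberg adjustment at 0.05. Donor correlations were tested exactly over 362880 pairings. The fit was tested on simulated data.

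The passages are paired by donor: after subtraction of the passage mean, Pearson correlations between the P6 and P3 samples of 1 donor lay between 0.066 and 0.643, with a median of 0.161, and exceeded 0.1 in 6 of 9 donors. The number of samples limits precision, and no read depth applies. The genes, the lists and the rule for named genes (the 4 genes, the 3 most alike genes of each, the 2 extremes of the signalling list in each direction, SOX9, PPARG and marker genes) were chosen with earlier results of these data known. The third gene most alike to BGLAP is not reported here. The setting of 8 units and that without donors 9-21 and 7-22 were chosen after seeing the data. Other alternatives were the donor block, exact permutation, robust regression, medians, CT limits of 32 and 40, unread or distant wells left out, other references, a filter at a mean CT of 30, the methods' test on 2 to the power −ΔCT, and fewer donors.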

Additional observations from a re-analysis of the deposited data

Results flagged for a closer look

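BGLAP of donor 7-22 at P6 stood apart from the other 8 samples of its passage, with a −ΔCT of 9.38 and a gap to the nearest sample of 0.920 of the whole range. COL1A1 of donor 2-22 at P3 stood apart likewise, with a −ΔCT of −19.76, set by the CT limit, and a gap of 0.868 of the range. Both gaps exceed Dixon's 95% critical value for 9 samples, and chance flags about 1 in 20 groups. Over the 84 genes at both passages, 40 of 168 groups (23.8%) held such a sample, against 2 of 8 groups of the 4 genes.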

How the results depend on the processing

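RUNX2 kept its lower mean at P6 under all 26 alternatives (−0.52 to −0.15). Several of these left it at −0.35 and could not move it, for instance because none of its wells was unread or distant. No alternative gave a call for any of the 4 genes. The donor as replicate block cannot change a difference when every donor has both passages, and bears on its error alone. With it the differences of −0.35 (RUNX2), 1.75 (BGLAP), 2.06 (COL1A1) and −1.18 (TBX5) had limma adjusted p from 0.741 to 0.746. The BGLAP difference turned to −0.056 by robust regression, −0.12 without wells more than 4 or 8 units away, −0.10 without donors 9-21 and 7-22 and −0.010 by medians, and ranged from −0.14 (without 7-22) to 2.14 with 1 donor left out. That of COL1A1 turned to −0.23 by robust regression, −0.41 without unread or distant wells, −0.40 in donors named with 21 and −0.19 by the methods' test, and ranged from −0.51 (without 2-22) to 2.74 with 1 donor left out. That of TBX5 turned to 0.90 without its 6 wells more than 4 units away and 0.16 by the methods' test, and ranged from −1.66 to −0.44 with 1 donor left out, and the cause was not tested. The methods' test on the linear scale gave BGLAP a log2 ratio of 13.5 (unadjusted p = 0.332). Taking the median of detected genes as reference moved every difference by −0.16.

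The 1 gene called became 2 with the donor block, without wells 8 units away, with the median reference and among 74 genes passing the filter at a mean CT of 30, and 3 by robust regression. It became 0 of 83 genes without unread wells, and 0 of 84 without wells 4 units away, without ACTB and B2M, in donors named with 21, in donors named with 22, without donors 9-21 and 7-22, by exact permutation and by the methods' test after adjustment (4 before it), and 0 to 2 with 1 donor left out (0 without 6-21, 13-21, 3-22, 6-22 or 7-22, with 5 to 7 at an unadjusted p under 0.05, and 2 without 14-21 or 1-22). Beside these counts of 0, limma gave 2, 6, 5, 3, 5 and 4 genes at an unadjusted p under 0.05, in the order named, and exact permutation gave 5. Donor correlations turned sign for RUNX2 (rho −0.017, 1 donor left out −0.038 to 0.52), BGLAP (median reference 0.45, 1 donor left out −0.42 to −0.09) and COL1A1 (rho 0.067, without distant wells 0.18, 1 donor left out −0.35 to 0.18), and stayed between 0.69 and 0.90 for TBX5.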
